A study of Mus musculus with 9 samples.

Results

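Cry2 encodes cryptochrome 2, a repressor of the circadian clock. It was read here through 1 probe, taken from the RIKEN cDNA clone D130054K12, which the reference annotation lists as a synonym of Cry2. No other probe on the array was named for the gene, so Cry2 was 1 of 5414 genes with a named probe and its probe 1 of 97836. The probe had 1 spot on each array. Cry2 was chosen by its measured difference between the high fat diet and control pools, so its levels in both high fat groups against the controls are given as a description, with no test. The comparison between the metformin and high fat diet groups is tested. It shares the high fat diet pools with the difference that chose the gene, and a choice made on low values in those pools would move it upward.

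The livers came from male C57BL/6J mice aged 20 weeks, with 3 groups of 3 samples, each sample pooling tissue of 4 mice. The metformin group was fed for 17 weeks on a diet in which fat supplied 45% of the energy, and was given metformin, a glucose-lowering drug for type 2 diabetes, by gavage at 3 mg/kg per day over the last 5 weeks. The high fat diet group ate the same diet for the same time and was given saline by gavage over those 5 weeks. The control group ate chow for 17 weeks, and the labels record no gavage for it, so the diet cannot be told apart from the gavage in any comparison with the controls. A pool gives the average of its mice, and the spread between 3 pools is narrower than that between single mice. The sources used here do not give the time of day at which the livers were taken, and Cry2 belongs to a system whose transcripts are known to vary over the day.

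The circadian clock is a feedback loop. CLOCK and BMAL1 (encoded by Arntl) bind E-box sequences and switch on the Per and Cry genes, whose proteins return to the nucleus and shut CLOCK and BMAL1 down. Cryptochromes are the strong repressors in that loop. In mouse liver, cryptochromes are also known to restrain glucose production, by damping the cyclic AMP response to glucagon and by repressing the glucocorticoid receptor.

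The Cry2 promoter is shown because the E-box is the sequence through which cryptochromes act on their own genes. RefSeq places it on the minus strand of chromosome 2. The stretch below, at chr2:92434090-92434319 of GRCm38.p6, covers positions 250 to 21 before the annotated start, 5′ to 3′, with clock motifs in capitals.
Cry2 promoter: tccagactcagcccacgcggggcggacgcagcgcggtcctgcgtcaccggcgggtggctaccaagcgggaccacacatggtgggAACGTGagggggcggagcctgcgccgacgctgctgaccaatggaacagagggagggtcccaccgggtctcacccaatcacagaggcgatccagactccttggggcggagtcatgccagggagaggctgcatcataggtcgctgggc
The capitals mark 1 match to the E-box variant CACGTT, read on the opposite strand, which starts 166 bases before the start. That variant occurs on either strand in 3.52% of the 32851 RefSeq promoter stretches of the same length and position. The canonical E-box CACGTG, found in 5.35% of them, and the D-box TTATGNAA, found in 2.92%, have no match in this window. The 3 motifs were searched on both strands, and their matches here do not overlap. The arrays measured RNA and not promoter activity, so these matches are a description of the gene.

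Each array held 175906 spots outside the controls, of which 53.0% to 63.5% were well above background and 0 were saturated. Correlations between pools of a group ran from 0.973 to 0.990 across the 62036 tested probes, which are not independent replicates. The arrays sat on 3 slides that were only partly crossed with the groups. High fat diet replicate 1 was on slide 1 with the 3 controls. Metformin replicates 1 and 2 shared slide 2 with high fat diet replicates 2 and 3, and metformin replicate 3 was on slide 3. Levels are log2 signals relative to the array's 75th percentile, so a difference of 1 is a doubling. Of 34 marker genes of liver cell types, 0 had a named probe, so the tissue was not checked through them. The antisense transcript of the hepatocyte factor gene Hnf4a, Hnf4aos, was above background on all 9 arrays with both of its probes. These probes differed by -0.36 and -0.32 between high fat diet and control and by -0.16 and -0.23 between metformin and control, with overlapping pools (limma adjusted p from 0.426 to 0.659), and the part of this in the Cry2 values was not tested.

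The Cry2 spot was well above background on all 9 arrays, and its raw brightness was 13.3 to 27.5 times the local background. Before any scaling its processed signal was 356, 302 and 294 intensity units in the metformin pools, 375, 327 and 334 in the high fat diet pools and 512, 535 and 469 in the controls. All 6 pools on the high fat diet were therefore dimmer than the dimmest control before the arrays were scaled. The share of tested probes with that arrangement before scaling was not computed. The arrays themselves differed in brightness. Their 75th percentile was 177 to 215 units in the metformin pools, 217 to 258 in the high fat diet pools and 236 to 242 in the controls. The extraction software put the error of this spot at no more than 10.3% of its signal on any array. Between spots of the same probe on the same array, at a brightness like that of Cry2, the median SD was 0.055 to 0.065 on the log2 scale.

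After scaling, the metformin pools stood at 0.73, 0.57 and 0.73, the high fat diet pools at 0.79, 0.52 and 0.37 and the controls at 1.08, 1.18 and 0.96. The controls were the 3 highest pools, and the metformin and high fat diet pools were interleaved below them. The group levels averaged 0.68 ± 0.09 with metformin, 0.56 ± 0.21 on the high fat diet with saline and 1.07 ± 0.11 in the controls (SD, n = 3 each). The lowest control lay 0.17 above the highest other pool, high fat diet replicate 1. That gap was narrower than the range within the high fat diet group, 0.42, and within the controls, 0.22, and equal to the range of 0.17 within the metformin group at this precision.

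**Figure D1:**
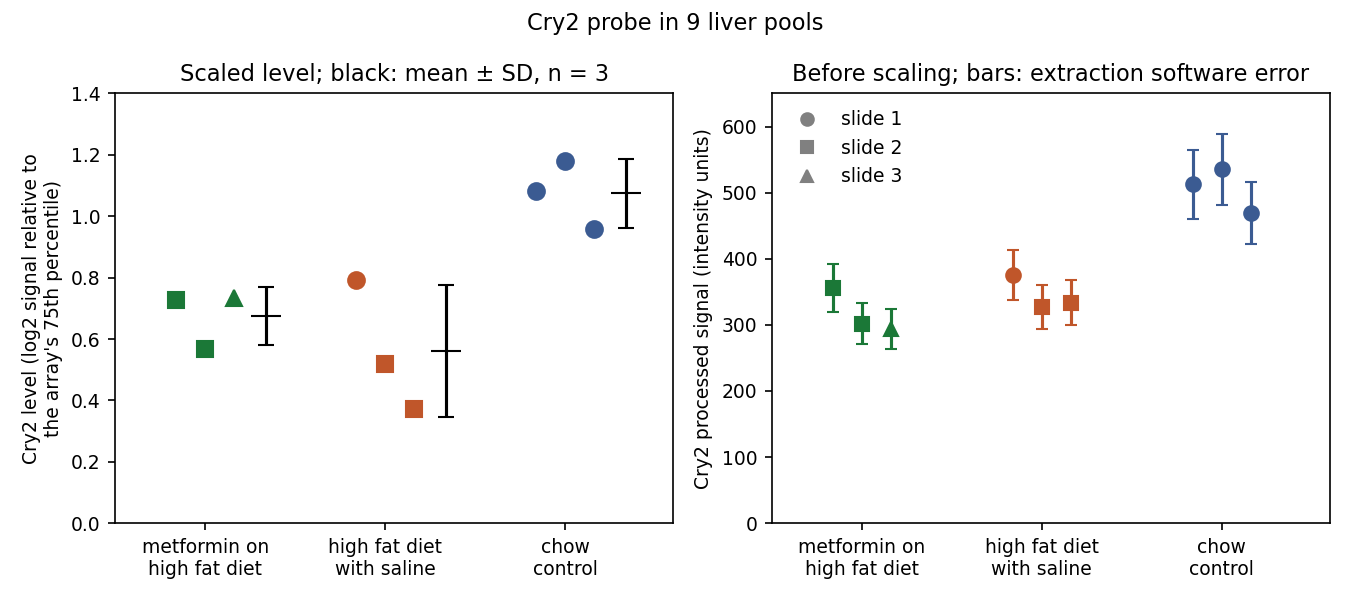
Cry2 in each of the 9 liver pools, with the scaled log2 level on the left (black marks give the mean ± SD of 3 pools) and the processed signal before scaling on the right (bars give the extraction software's error of 1 spot). Marker shapes give the slide. The 6 high fat pools lie between 0.37 and 0.79, below the controls at 0.96 to 1.18, and the high fat diet pool nearest to the controls is the one that shares their slide.

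Between high fat diet and control, Cry2 was lower by 0.51 on average (-0.51, SE 0.15), a ratio of 0.701. All 3 high fat diet pools lay below all 3 controls, an arrangement that 8.13% of the tested probes showed in the same direction. A difference at least as low was found for 8.11% of tested probes. The 3569 tested probes with a mean level within 0.25 of that of Cry2 had a median difference of 0.023. In bulk liver RNA, fewer cells that express a gene and less of its RNA per cell cannot be told apart.

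Between metformin and high fat diet, Cry2 differed by 0.11 (SE 0.15), a ratio of 1.08. The adjusted p from limma, a linear model that draws each probe's spread towards a value common to all probes, was 0.933. The 95% interval ran from -0.22 to 0.45, so the data allow a level somewhat lower or higher with metformin. An exact two-sided permutation test of the 3 pools against 3 gave p = 0.6, where the smallest p this design allows is 0.1. Limma called 0.00645% of the tested probes here (4 of 62036), Cry2 not among them. The metformin pools, at 0.57 to 0.73, lay within the range of the high fat diet pools, 0.37 to 0.79. Leaving out high fat diet replicate 3 gave a difference of 0.019, and leaving out replicate 1 of that group gave 0.23.

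Between metformin and control, Cry2 was lower by 0.40 (-0.40, SE 0.15), a ratio of 0.758. All 3 metformin pools lay below all 3 controls, as they did for 12.5% of the tested probes, and 15.2% had a difference at least as low. All 6 high fat pools lay below the controls for 4.64% of tested probes. The high fat diet and metformin comparisons use the same 3 controls and are not independent of each other.

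The slide moved with these differences. On slide 1, high fat diet replicate 1 was at 0.79, against a mean of 1.07 for the 3 controls, a difference of -0.28 in place of -0.51. That pool was 0.17 below the lowest control, and on the same slide 20.4% of tested probes had it below all 3 controls. On slide 2, metformin replicates 1 and 2 averaged 0.65, against 0.45 for high fat diet replicates 2 and 3, a difference of 0.20, and both metformin pools were above both high fat diet pools. That arrangement was shared by 20.2% of tested probes. With slide as a fixed block the difference between metformin and control, which share no slide, was -0.081 (SE 0.28) in place of -0.40. That value is indirect, reached through the high fat diet pools, of which slide 1 held 1. Metformin replicate 3, alone on slide 3, adds nothing to it. With slide as a random block, the estimated correlation between arrays of a slide was -0.17. The differences were then -0.58 for high fat diet against control, 0.11 for metformin against high fat diet and -0.48 for metformin against control. The 2 ways of allowing for the slide thus moved the differences from the controls in opposite directions. The part of the slides in the Cry2 differences was not tested beyond these values. The place of the spot on the slide moved little: 222 spots within 10 rows and columns of it, all well above background, had a median shift of -0.068 to 0.038 per array, and with that shift removed the differences were -0.50 for high fat diet against control, 0.13 for metformin against high fat diet and -0.38 for metformin against control.

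**Figure D2:**
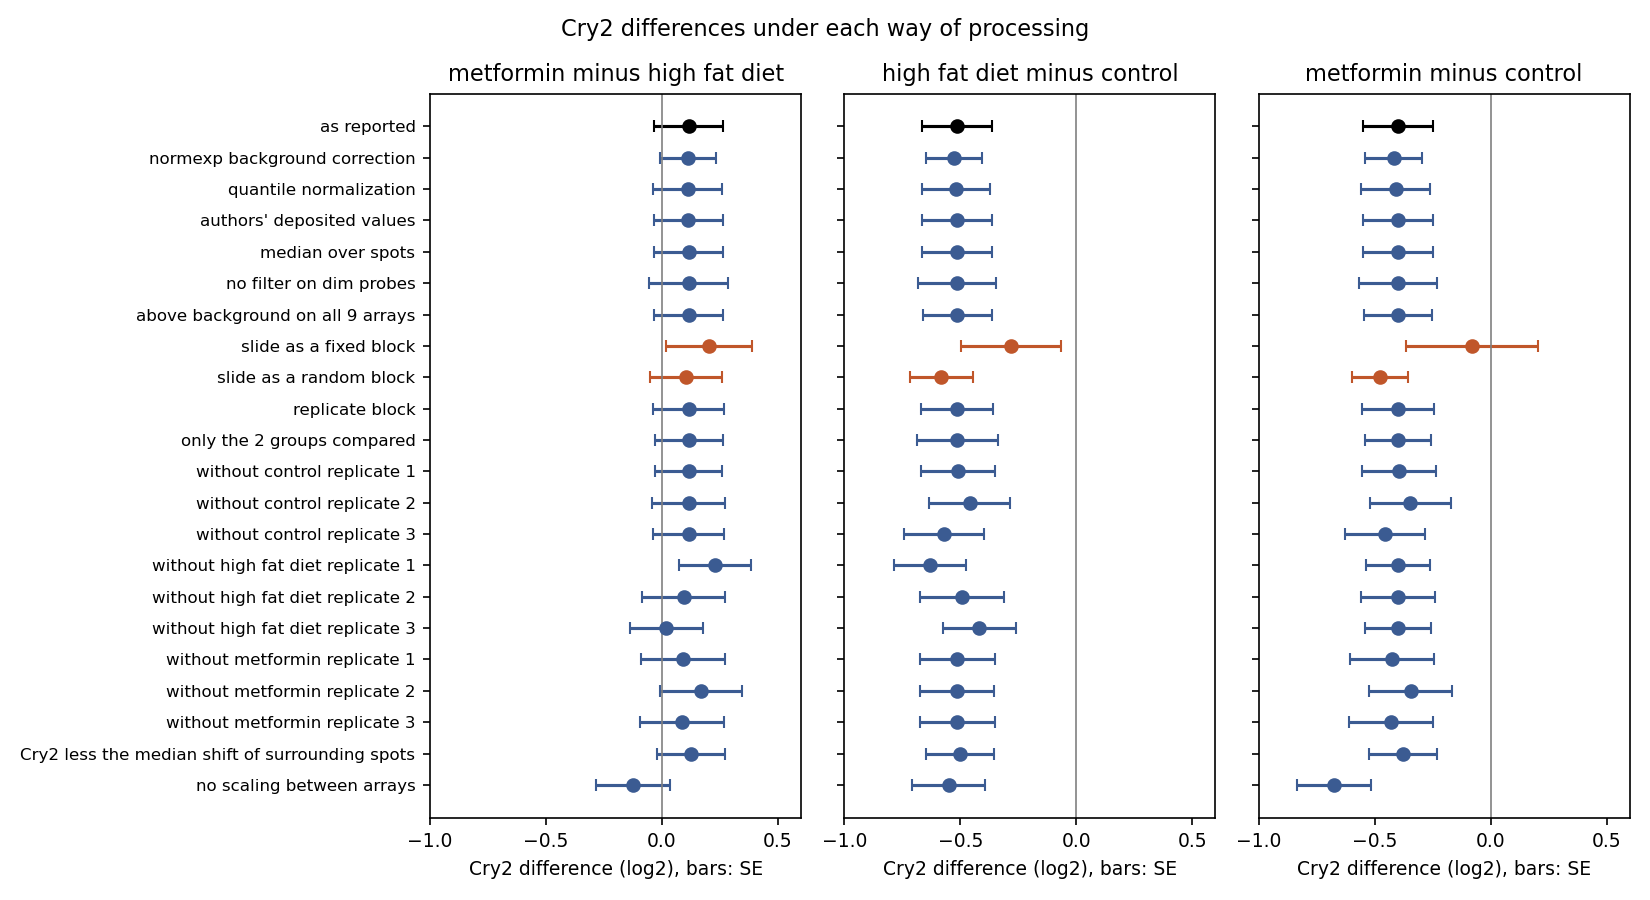
The Cry2 difference (log2, bars give the SE) in each comparison under each way of processing the arrays. The difference between high fat diet and control runs from -0.63 to -0.28, with the fixed slide block nearest to 0. That between metformin and high fat diet runs from -0.13 without scaling to 0.23 without high fat diet replicate 1. Several ways of processing cannot move a difference and repeat its value.

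Genes around Cry2 were read to see whether its neighbours differed in the same way. The annotation holds 29 other genes within 500 kb, of which 7 had a named probe and 5 were tested. Limma called 0 of the 5 in any of the 3 comparisons, with a lowest adjusted p of 0.298. Over all tested probes it called 0.0451% for high fat diet against control, 0.00645% for metformin against high fat diet and 0.546% for metformin against control, shares at which 0 of 5 says little about the locus. D930015M05Rik, a noncoding gene annotated within the span of Cry2 on the opposite strand, had no named probe. Gm39880 and Gm13791, both noncoding, were above background on 0 arrays.

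Phf21a, which encodes a subunit of a histone deacetylase and demethylase complex, differed from Cry2 in sign. It stood at -1.43, -1.27 and -1.08 in the metformin pools, at -1.08, -0.80 and -1.44 in the high fat diet pools and at -1.74, -1.85 and -1.41 in the controls. High fat diet replicate 3 and metformin replicate 1 overlapped the controls. The difference was 0.56 (SE 0.20, limma adjusted p = 0.298) between high fat diet and control and 0.41 (SE 0.20, limma adjusted p = 0.298) between metformin and control.

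The other neighbours gave differences smaller than their SE between high fat diet and control. The SEs were 0.16 to 0.21, so shifts of that size cannot be told from 0 here. Dgkz, a diacylglycerol kinase, was at 0.14 between high fat diet and control. The coding gene 1700029I15Rik was at -0.016, the noncoding Gm39877 at -0.074 and the noncoding Gm32413 at -0.013. Between metformin and high fat diet, the 5 neighbours ranged from -0.19 for Gm32413 to 0.18 for Gm39877.

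Cry2 stood alone among the clock genes that could be read. Of 22 genes of the core clock, 22 that turn over or phosphorylate cryptochromes and 21 clock outputs of the liver, 64 different genes in all, Cry2 had the only named probe. Its paralogue Cry1, the Per genes, Arntl, Nr1d1 and Dbp may have probes among the 39027 of the manufacturer's catalogue, which come without gene names in the files and were not matched to genes here. The clock was therefore seen only through noncoding transcripts that overlap 1 of the 21 core clock genes reported on or lie within 50 kb of one. There were 10 of these, of which 6 were tested, and their position beside a clock gene does not show that they share its regulation.

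Limma called 0 of the 6 in any comparison, too few transcripts to read against the shares of 0.0451%, 0.00645% and 0.546% given above. Gm33424, 1 of the 6, was below 0 in each comparison and passed the filter only through the controls, where its signal was highest. Between high fat diet and control, 1 was above 0 and 5 below, with a median difference of -0.11 against -0.010 over all tested probes, and the lowest adjusted p was 0.334. That tally turned to 4 above and 2 below without control replicate 1 or without high fat diet replicate 3, with medians of 0.060 and 0.056. Between metformin and high fat diet, 2 were above 0 and 4 below, with a median of -0.014 against 0.0069 over all probes, and 4 above and 2 below without high fat diet replicate 2. Between metformin and control, 1 was above 0 and 5 below, with a median of -0.053 against -0.0052, and 5 above and 1 below without control replicate 1.

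Gm32675 lies beside Bhlhe41, which encodes the E-box repressor DEC2. It stood at 0.29, -0.09 and 0.20 in the metformin pools, at -0.10, 0.36 and 0.24 in the high fat diet pools and at -0.30, -0.28 and -0.21 in the controls. Against the controls it differed by 0.43 for high fat diet (SE 0.16, limma adjusted p = 0.334) and 0.40 for metformin (SE 0.16, limma adjusted p = 0.230). Both differences were opposite in sign to those of Cry2. The transcript is named because its differences were among the largest of the tested clock neighbours, and limma did not call it. The metformin and high fat diet pools overlapped, with a difference of -0.032.

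Gm33424 lies beside Nfil3, which encodes a repressor that binds D-boxes. It stood at -3.24, -4.11 and -3.46 in the metformin pools, at -2.72, -3.28 and -3.59 in the high fat diet pools and at -2.61, -2.89 and -2.53 in the controls. It was above background in 1 metformin pool, 1 high fat diet pool and all 3 controls. It thus passed the filter of at least 3 arrays only through the controls, where it was highest. Its differences are therefore given as a description, and their size is uncertain. They were -0.52 for high fat diet and -0.93 for metformin against the controls, and -0.40 for metformin against high fat diet (SE 0.27 each).

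Beside Rora, which encodes a nuclear receptor that drives Arntl, the noncoding Gm31262 was above background in 2 metformin pools, 1 high fat diet pool and 2 controls, so its differences are uncertain in size. They were -0.19 between high fat diet and control, which turned to 0.10 without control replicate 3 and to 0.099 without high fat diet replicate 3, and 0.15 between metformin and high fat diet, with an SE of 0.44. That last value was -0.086 without metformin replicate 2 and -0.14 without high fat diet replicate 3. Beside Dbp, which encodes an output transcription factor of the clock, the noncoding Gm31597 averaged -2.13 ± 0.098 with metformin and -2.13 ± 0.11 on the high fat diet (SD, n = 3 each) and stood at -1.07, -2.48 and -2.15 in the controls. Its differences of -0.23 for each high fat group against the controls rested on control replicate 1. Without that pool they were 0.18 for high fat diet and 0.19 for metformin, and the difference between metformin and high fat diet was 0.0064. The transcripts left untested for low signal lay beside Per2, Nr1d1, Ciart and Bhlhe40.

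**Figure D3:**
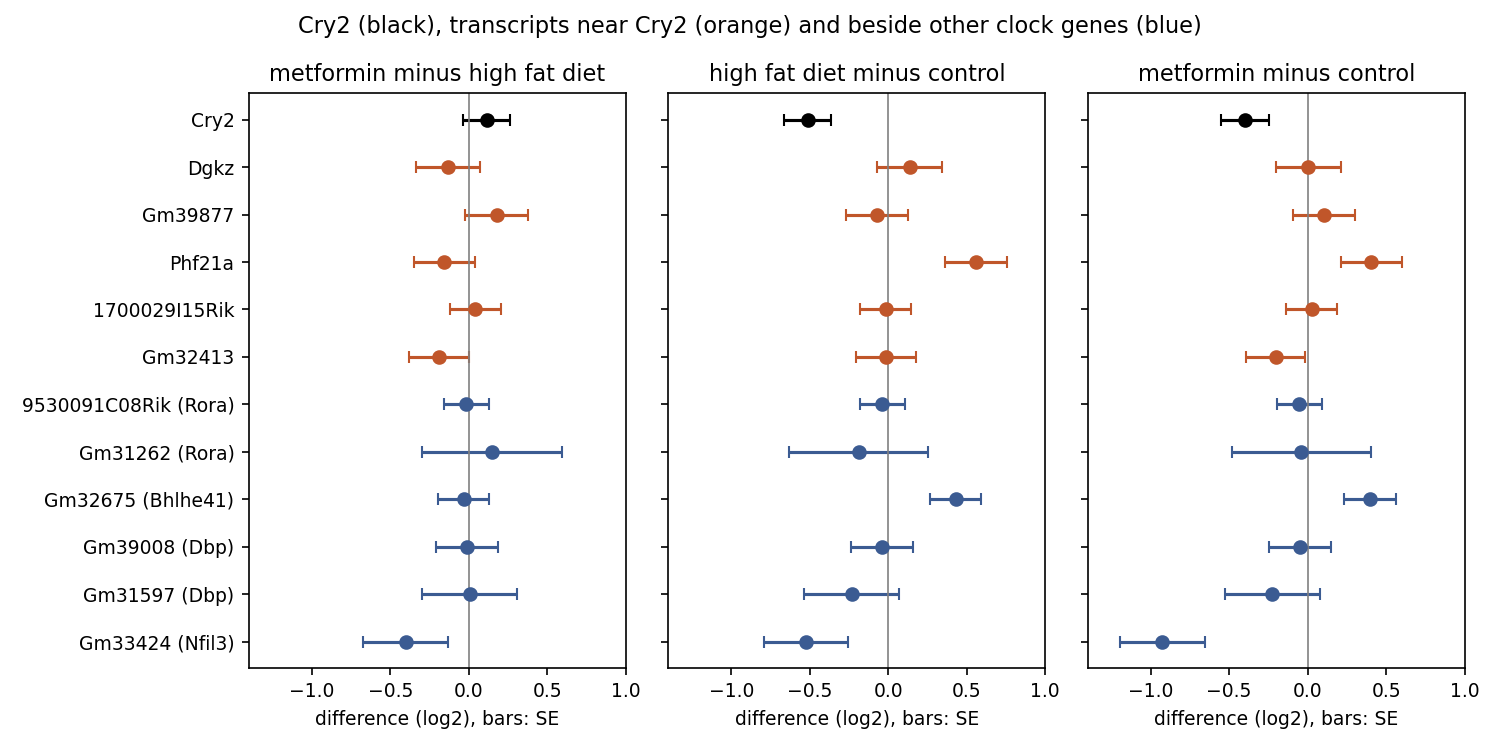
Differences (log2, bars give the SE) of Cry2 in black, the 5 tested transcripts within 500 kb of it in orange and the 6 tested noncoding transcripts beside other core clock genes in blue, with the clock gene in brackets. Phf21a (0.56) and Gm32675 (0.43) lie above 0 between high fat diet and control, where Cry2 is at -0.51, and limma called none of the 11 neighbours in the 3 comparisons.

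The named transcripts whose levels were most like those of Cry2 were sought over the 9 pools. Each transcript's levels were taken less their own mean, and likeness was the root mean square difference from Cry2, which had a median of 0.35 over 2710 genes. The closest 5 were all noncoding, as were 2241 of the 2711 named genes tested: 4930412F09Rik (0.084), Gm40109 (0.086), Gm41131 (0.094), Gm35934 (0.097) and Gm39928 (0.11, above background on 6 of 9 arrays). Their chromosomes were 6, 3, 14, 8 and 2. They were picked over the same pools as Cry2, so the order of pools they share with it was fixed by the choice.

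The values by slide are a description for the same reason. On slide 1, high fat diet replicate 1 differed from the controls' mean by -0.28 for Cry2 and -0.25 for Gm41131, but by -0.051 for Gm35934, -0.075 for Gm39928, -0.081 for 4930412F09Rik and -0.10 for Gm40109. High fat diet replicates 2 and 3, on slide 2, differed from the controls of slide 1 by -0.63 for Cry2 and by -0.72 to -0.47 for the 5 transcripts. In absolute terms the high fat diet pool on the controls' slide stood closer to the controls in the 5 transcripts than in Cry2, in Gm41131 by only a little. The average difference between high fat diet and control was also smaller in size in the 5, at -0.505 to -0.398, than in Cry2, at -0.513. The values by slide were not scaled for this.

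**Figure D4:**
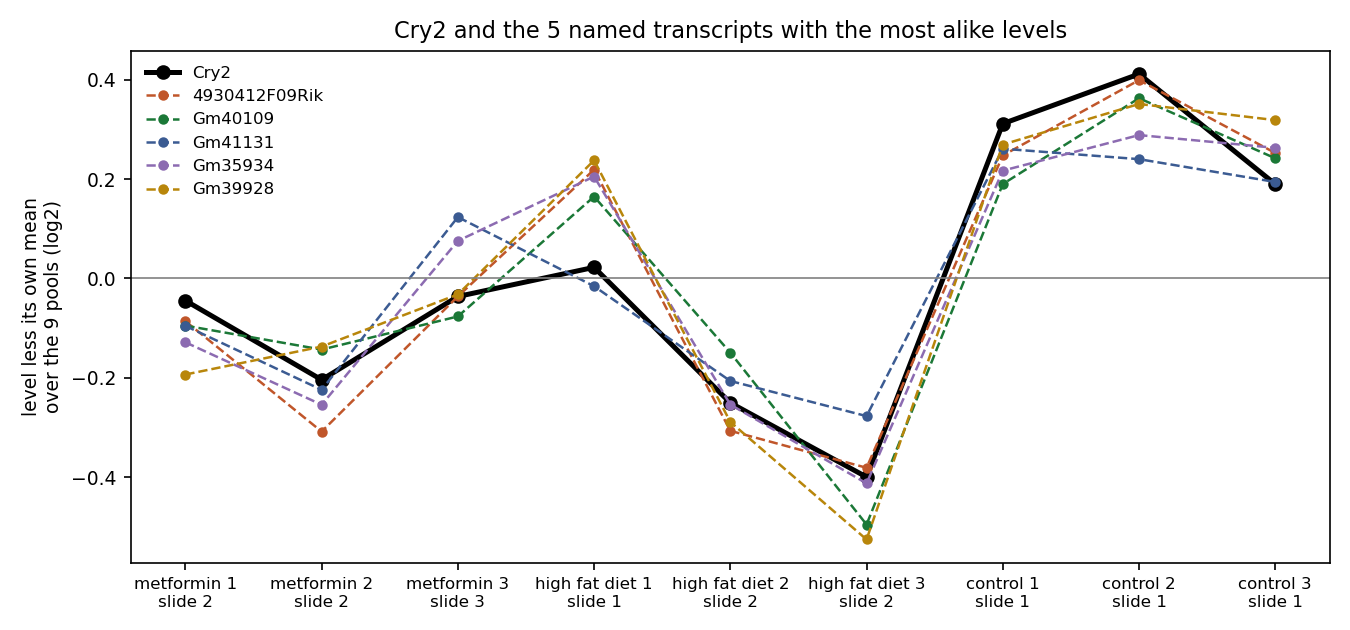
Level of Cry2 (black) and of the 5 named transcripts most like it, each less its own mean over the 9 pools (log2), by pool and slide. Lines join the points of 1 transcript and imply no order of the pools. In high fat diet replicate 1, Cry2 is at 0.022 and Gm41131 at -0.016, while the other 4 transcripts are at 0.16 to 0.24, close to the controls of the same slide.

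Coding genes read in the same way were set beside Cry2. Of 445 tested coding genes with a RIKEN clone probe, 11 (2.47%) had all 6 high fat pools below the controls, Cry2 included. Over all tested probes that share was 4.64%. Between high fat diet and control, 25 of the 445 had a difference at least as low as that of Cry2, as did 8.11% of all tested probes. Both conditions were met by 5 of the 445, counting Cry2, and the share of all tested probes that met both was not computed. A clone probe of this kind may read a transcript of the locus other than the main mRNA, and the sequence of the Cry2 probe was not used here.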

How the data were processed

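Liver RNA of 9 pools was hybridised to single-colour arrays. Per the file headers, the authors extracted spots with Agilent Feature Extraction 11.5.1.1 (10.7 per the submitters' processing notes), and the processed signal is a linear intensity, background-subtracted within the array. The authors' deposited table holds log2 values, which matched the log2 processed signal centred on each array's 75th percentile within 0.01 for at least 99.97% of probes (column medians -2.39 to -2.16). The header names mm9. Names came from a RefSeq table of GRCm38.p6, by accession or clone name. The Feature Extraction marks (other) are 0 or 1 as deposited.

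Spots with an outlier mark were dropped, log2 signals averaged per probe, and the 75th percentile subtracted. Probes above background (at least 0.5 of spots) on at least 3 of 9 arrays were tested, 62036 in all, with limma 3.58.1 in R 4.3.3 (3 group means, Benjamini-Hochberg at 0.05, 6 residual and 3.75 prior degrees of freedom). The fit was also run on simulated data without slide effects and with changes larger than those of Cry2. That run does not show its precision for Cry2. The member and the lists were chosen with earlier results of these data known. Genes named are Cry2, list members, neighbours (per comparison, the 2 largest clock differences each way) and the 5 most alike. The neighbour of 1 core clock gene is not reported here. Hnf4aos, the coding-gene counts and the clock neighbours with 1 pool left out were added after values were seen. Alternatives varied the background correction, scaling, filter, slide, pairing and arrays. Normexp used median spot signals in place of the planned mean signals. Replicates share numbers in the labels, but deviations of same-numbered pools correlated at -0.09 to 0.13, so the numbers were not taken to pair them.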

Additional observations from a re-analysis of the deposited data

How the results depend on the processing

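Under the 21 alternatives Cry2 differed by -0.63 to -0.28 between high fat diet and control and by -0.68 to -0.081 between metformin and control. Several alternatives cannot move a difference: the filters, the replicate block, the median over spots and the fit of only the groups compared. The same holds for leaving out a pool of the group not compared. The gene was chosen by its difference between high fat diet and control, so the shared direction is a description. Leaving out 1 pool gave -0.63 to -0.42 for high fat diet, -0.46 to -0.34 for metformin against control and 0.019 to 0.23 for metformin against high fat diet. With slide as a fixed block the values were -0.28 and -0.081 against the controls and 0.20 between the high fat groups. With slide as a random block they were -0.58 and -0.48 against the controls and 0.11 between the high fat groups. Without scaling, chosen after seeing the data, metformin against high fat diet turned to -0.13 and metformin against control moved to -0.68, where the median of all probes was -0.23 and -0.28. Relative to that median the values were 0.11 and -0.39. Adjusted p for metformin against high fat diet ran from 0.677 to 1.00. With the replicate block the differences were -0.51, 0.11 and -0.40, which is fixed by the layout, since every group holds each replicate number once. Only the SE could change, and it was 0.155 in place of 0.151. The number of called probes ran from 0 to 296 for high fat diet against control (28 in the fit described). For metformin against high fat diet it ran from 0 to 7 (4), and for metformin against control from 0 to 8243 (339). The 8243 came with slide as a random block, at a negative correlation between arrays of a slide, -0.17. With the replicate block the numbers were 0, 0 and 79. Taking the median over spots changed nothing, since no probe has over 2 spots. The precision is limited by 3 pools per group, with a pooled SD of 0.15. Each pool was read from 1 spot. The extraction software gave nearly the same error on every array, 0.14 on the log2 scale. The measured median SD between spots of the same probe, at a brightness like that of Cry2, was smaller, at 0.055 to 0.065. The part of spot error in the pooled SD was not tested.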
